A study of Mus musculus with 89 samples.

Results

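The 9 genes described here belong to the goblet cell and its mucus: the mucins Muc5ac and Muc5b, the secreted products Clca1, Fcgbp, Tff2 and Bpifb1, the mucin-folding protein Agr2, and the transcription factors Spdef and Foxa3. They are 9 of the 17097 genes on the arrays, listed by symbol, and each was read from its probe set with the highest mean over all 89 arrays. All 9 were among the 15065 genes tested. Lung RNA of male mice aged 7 to 8 weeks was measured on Affymetrix arrays, in SP-D-/- mice (which lack surfactant protein D, an airspace lectin encoded by Sftpd), in BALB/c mice and in C57BL/6 mice. The background strain of the SP-D-/- mice is not stated.

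Mice given Aspergillus fumigatus (Af), a mould used as allergen, received it into the peritoneum on day 0 and day 7, and intranasally on day 13 as the challenge. Every group breathed either ozone at 3 ppm or air for 2 h and was killed 12 h later. The groups were Af at 24 h with air (6 arrays in SP-D-/-, 5 in BALB/c, 4 in C57BL/6), Af at 96 h with ozone (6, 6 and 5 in the same order of strains), Af at 168 h with air (5, 6 and 4), Af at 168 h with ozone (4, 4 and 6), ozone alone (4, 2 and 6) and air alone (5, 5 and 6). The times count from the Af challenge. The 89 arrays hold no group of Af at 24 h with ozone or of Af at 96 h with air, so the 96 h groups are set against ozone alone. Whether the air and ozone groups were sensitized is not stated. RNA came from the perfused left lobe, a mixture of all its cells, so more goblet cells and more RNA per goblet cell cannot be told apart. The labels do not say that each array is a separate animal, so p-values measure the spread between arrays, which may be technical.

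Goblet cells are the mucus-secreting cells of the airway lining. Muc5ac and Muc5b are the gel-forming polymers of airway mucus, Agr2 is needed in the endoplasmic reticulum to fold them, and Clca1 and Fcgbp are secreted with them. Interleukin 13, acting through the receptor chain Il4ra and the factor Stat6, turns club cells of the airway into goblet cells, a change for which Spdef is required and which Foxa3 promotes. In mouse airways Muc5b is made at rest, whereas Muc5ac and Clca1 are known as genes of the allergic airway.

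RefSeq promoter windows were matched for 5 of the 9 genes, 6 windows in all, in build GRCm38.p6. Clca1, Muc5ac, Muc5b and Tff2 are named only. The 250 bases before each start were searched on both strands for the STAT6 motif (TTC and GAA with 4 bases between them), for the forkhead core as TGTTTAC or as TATTTAC or as TGTTTGC, and for the TATA box as TATAAA. The windows with a match are shown because they belong to the factors of the goblet programme and to 1 of its products. Each is given 5′ to 3′ on the strand of its gene, with the match in capitals.
Spdef, chr17:27728952-27729201, minus strand: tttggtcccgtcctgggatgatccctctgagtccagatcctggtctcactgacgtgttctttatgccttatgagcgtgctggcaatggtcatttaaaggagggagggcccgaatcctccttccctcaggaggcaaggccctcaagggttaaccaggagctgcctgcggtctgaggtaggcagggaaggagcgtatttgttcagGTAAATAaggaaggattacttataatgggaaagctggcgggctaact
Foxa3, chr7:19023540-19023789, minus strand: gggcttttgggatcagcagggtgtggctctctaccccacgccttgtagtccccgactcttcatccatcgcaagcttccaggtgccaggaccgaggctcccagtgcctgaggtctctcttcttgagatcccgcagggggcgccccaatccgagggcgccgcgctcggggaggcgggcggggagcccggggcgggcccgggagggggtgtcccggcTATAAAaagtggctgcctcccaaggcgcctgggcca
Bpifb1, first start, chr2:154190568-154190817, plus strand: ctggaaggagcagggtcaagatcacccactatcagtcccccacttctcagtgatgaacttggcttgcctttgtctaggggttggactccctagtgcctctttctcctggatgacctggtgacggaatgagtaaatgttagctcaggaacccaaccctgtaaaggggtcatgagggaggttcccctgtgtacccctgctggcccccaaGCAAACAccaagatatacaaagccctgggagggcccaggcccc
Bpifb1, second start, chr2:154200130-154200379, plus strand: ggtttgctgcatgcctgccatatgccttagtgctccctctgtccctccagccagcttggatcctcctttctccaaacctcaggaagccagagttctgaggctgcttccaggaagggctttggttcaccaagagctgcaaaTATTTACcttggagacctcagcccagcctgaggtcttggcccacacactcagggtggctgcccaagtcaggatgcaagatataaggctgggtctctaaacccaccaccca

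The Spdef window held the reverse complement of TATTTAC 47 bases before the start, and the first Bpifb1 window the reverse complement of TGTTTGC 43 bases before it. The Spdef start used lies inside the annotated gene (chr17:27714446-27731003), not at its outer 5′ end. TATTTAC lay 110 bases before the second Bpifb1 start and TATAAA 36 bases before the Foxa3 start. TATTTAC was in 2 of the 6 windows and in 2.73% of 32851 promoters of this length, TGTTTGC in 1 and in 4.3%, and TATAAA in 1 and in 12.4%. No member window held TGTTTAC (3.17% of promoters) or the STAT6 motif (5.85%), and the windows of Fcgbp (chr7:28070986-28071235) and Agr2 (chr12:35992675-35992924) held none of the 5 patterns. These are matches of letters only.

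Every array had a median log2 signal of 4.90. Values under 4.45, the 40th percentile of all values, are near background. Muc5b, Tff2 and Bpifb1 were above this level on all 89 arrays, Fcgbp on 87, Muc5ac on 85, Agr2 on 81, Foxa3 on 78, Clca1 on 70 and Spdef on 47. Sftpd, the gene deleted in SP-D-/- mice, disagreed with the label of 4 arrays: Af 96 h with ozone replicate 1 of SP-D-/- (10.94), Af 24 h with air replicates 4 (8.79) and 5 (7.68) of BALB/c, and Af 168 h with ozone replicate 6 of BALB/c (5.59). C57BL/6 Af 96 h with ozone replicate 1 lay at 0.63 on an index of 76 genes that puts the C57BL/6 air mean at -1 and the BALB/c air mean at 1. The changes of the 9 genes at 96 h are given with and without these arrays, as are other changes of theirs printed here that the arrays moved by more than 0.5 or past the threshold.

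**Figure D1:**
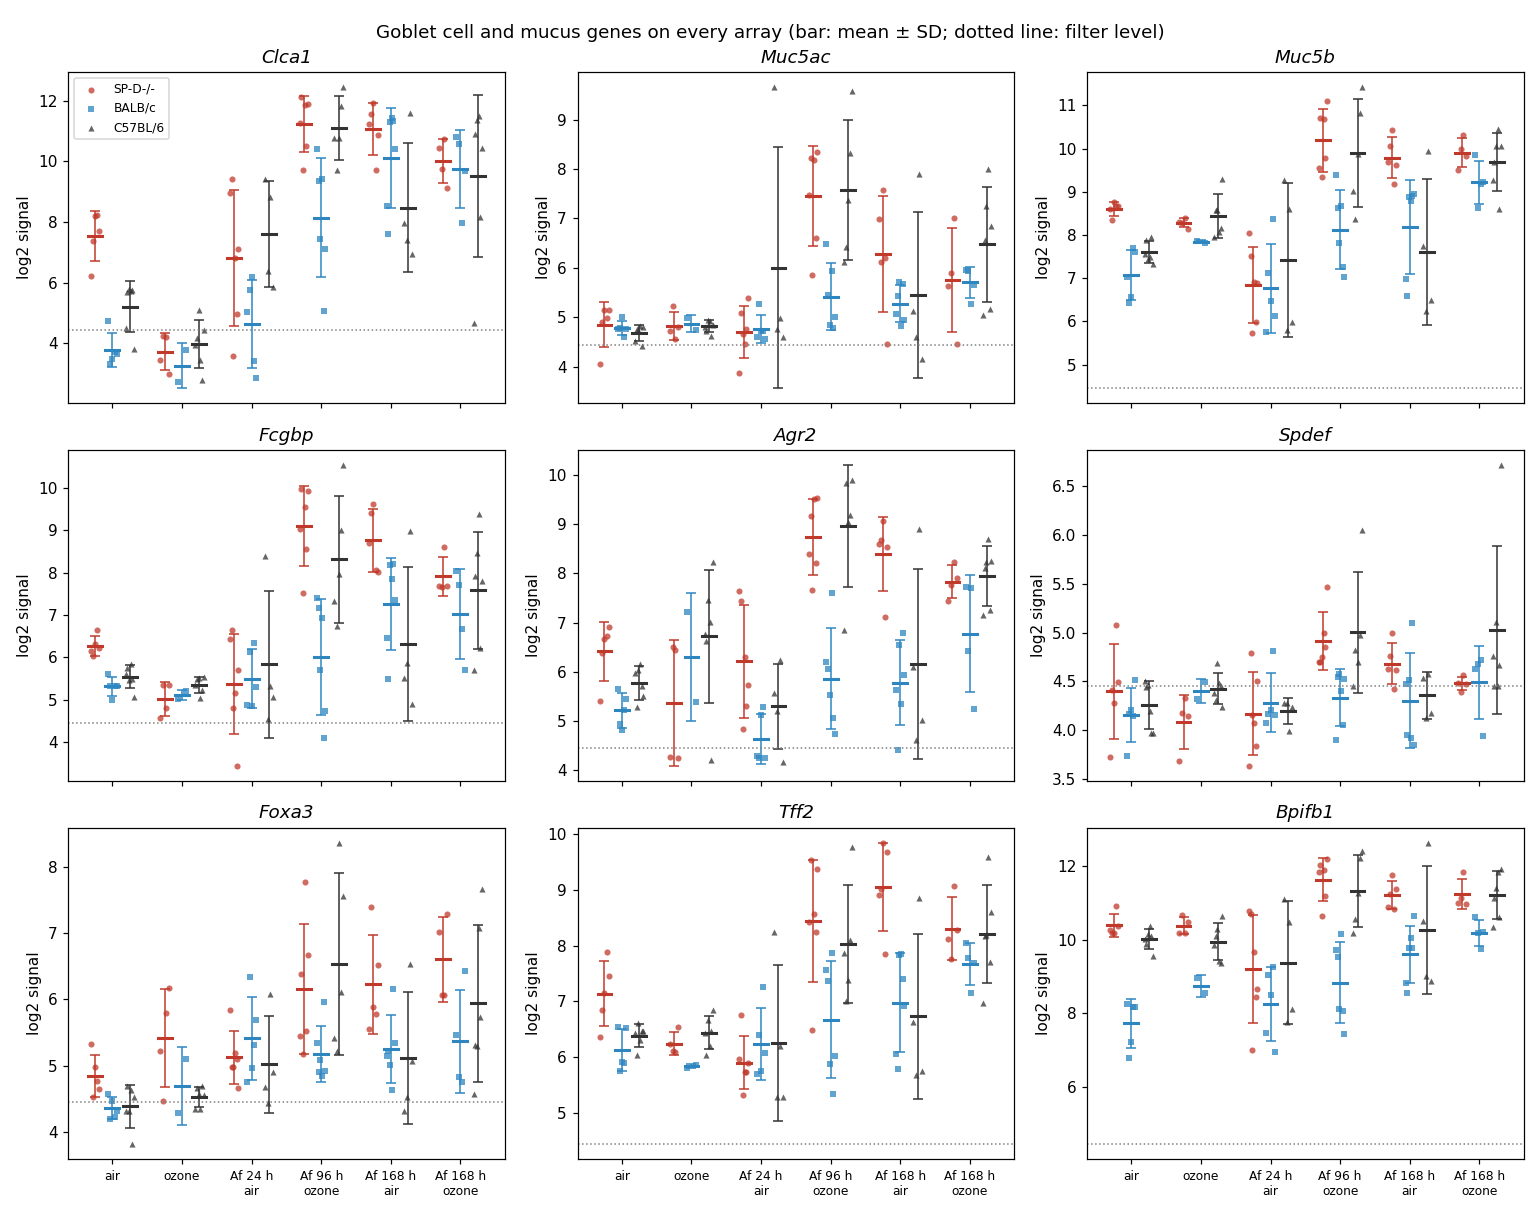
Log2 signal of each of the 9 genes (1 panel a gene, y axis) on each of the 89 arrays, by exposure and strain (x axis). Points are arrays, with the group mean and SD. Clca1 spans 7.98 between its highest and lowest group means and Spdef 0.94.

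Over the 18 groups, SP-D-/- mice at 96 h of Af with ozone had the highest mean of Clca1 (11.24), Muc5b (10.20), Fcgbp (9.10) and Bpifb1 (11.64), on the log2 scale. C57BL/6 mice at 96 h had the highest mean of Muc5ac (7.57) and Agr2 (8.96). Tff2 was highest in SP-D-/- at 168 h with air (9.06), Foxa3 in SP-D-/- at 168 h with ozone (6.61) and Spdef in C57BL/6 at 168 h with ozone (5.03). The lowest means were in groups without Af for 7 of the genes, and at Af 24 h in BALB/c for Muc5b (6.77) and Agr2 (4.64). Between neighbours in this order, 1 of the 17 gaps exceeded the spread of the arrays for Muc5ac, Muc5b, Agr2 and Bpifb1, and 0 did for the other genes. Probe sets differ in brightness, so levels are compared within a gene only.

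At 96 h after the challenge, with ozone, 8 of the 9 genes were higher in C57BL/6 mice than after ozone alone, and 6 were in SP-D-/- mice (limma, adjusted p under 0.05). Among all genes tested, limma called 36.4% in C57BL/6 and 2.58% in SP-D-/- for these comparisons. Over the 9 genes the median change was 2.01 in C57BL/6 and 2.19 in SP-D-/-, on the log2 scale, where the medians of all genes were -0.00178 and 0.111. In BALB/c the test called 0 of the 9, with 1 at an unadjusted p under 0.05, and 0.0531% of all genes, in a comparison with only 2 ozone arrays. Arrays did not overlap for 6 of the 9 genes in SP-D-/-, all higher with Af, for 5 in C57BL/6 and for 1 in BALB/c. Of all genes, 7.07%, 16.5% and 17.6% did not overlap in these strains, in either direction.

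Clca1, a secreted protease-like protein that is cleaved and bound into mucus, changed most of the 9. It read 9.73 at the lowest, 11.57 at the median and 12.13 at the highest in SP-D-/- mice at 96 h, against 3.45, 4.25, 4.20 and 2.99 in SP-D-/- mice given ozone. The C57BL/6 arrays at 96 h read 10.77, 9.72, 10.78, 11.84 and 12.46, against 2.78 at the lowest, 4.05 at the median and 5.09 at the highest after ozone. Every 96 h array of both strains was above every ozone array, most of which were near background. The change was 7.52 ± 0.93 in SP-D-/- (SE of the fit, limma adjusted p = 1.06e-07) and 7.14 ± 0.87 in C57BL/6 (adjusted p = 1.36e-08). The sizes are limited by background, since Clca1 exceeded 4.45 on 0 of 4 ozone arrays in SP-D-/- and on 1 of 6 in C57BL/6. With lower ozone values set to 4.45, Clca1 was at least 110.6-fold higher in SP-D-/- and at least 94.2-fold in C57BL/6 (6.79 and 6.56 on the log2 scale). In BALB/c mice Clca1 ran from 5.07 through a median of 8.41 to 10.42 at 96 h, against 2.73 and 3.78 after ozone, also without overlap, as for 17.6% of all genes there. That change of 4.88 ± 1.17 had a limma adjusted p of 0.0833 and passed the threshold only without Af 96 h replicate 5, the lowest array. A second Clca1 probe set, with a mean of 4.81 over all arrays, gave 2.74 in SP-D-/- and 2.33 in C57BL/6, with limma adjusted p of 0.00173 and 0.000265. In BALB/c it gave 0.48 and did not pass.

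Muc5ac, the mucin of the allergic airway, read 5.86 at the lowest, 7.83 at the median and 8.33 at the highest in SP-D-/- mice at 96 h, against 4.73, 5.23, 4.56 and 4.80 after ozone. In C57BL/6 it read 6.13, 6.43, 7.38, 8.32 and 9.58 at 96 h, against 4.63, 4.83 and 4.95 (lowest, median, highest) after ozone. The arrays did not overlap in either strain. Muc5ac rose by 2.62 ± 0.59 in SP-D-/- (6.13-fold, limma adjusted p = 0.00542) and by 2.75 ± 0.55 in C57BL/6 (6.72-fold, adjusted p = 0.000115). In BALB/c it ran from 4.79 through 5.23 to 6.48 at 96 h and read 4.99 and 4.75 after ozone, a change of 0.55 with a 95% interval from -0.93 to 2.03.

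Muc5b, the mucin that mouse airways also make at rest, was well above background in every group. It read 9.34, 10.24 and 11.11 (lowest, median, highest) in SP-D-/- at 96 h, against 8.30, 8.28, 8.40 and 8.15 after ozone. In C57BL/6 it read 9.02, 8.38, 9.88, 10.82 and 11.43 at 96 h, against 7.95, 8.37 and 9.30 (lowest, median, highest) after ozone. The groups were apart in SP-D-/- and overlapped in C57BL/6. Muc5b rose by 1.92 ± 0.54 in SP-D-/- (3.78-fold, limma adjusted p = 0.0373) and by 1.47 ± 0.51 in C57BL/6 (2.77-fold, adjusted p = 0.0202). Both calls depended on single arrays: that in C57BL/6 was lost without Af 96 h replicate 4 or 6, and that in SP-D-/- without 6 of its 10 arrays in turn.

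Fcgbp, a large protein secreted with mucins that binds them, read 7.53, 9.29 and 9.99 (lowest, median, highest) in SP-D-/- at 96 h, against 4.56, 5.36, 4.82 and 5.36 after ozone. In C57BL/6 it read 7.33, 6.75, 7.97, 9.0 and 10.55 at 96 h, against 5.05, 5.41 and 5.53 after ozone. No ozone array reached a 96 h array in either strain. Fcgbp rose by 4.08 ± 0.64 in SP-D-/- (16.9-fold, limma adjusted p = 7.81e-05) and by 2.96 ± 0.60 in C57BL/6 (7.81-fold, adjusted p = 0.000144).

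Tff2, a trefoil peptide secreted with mucins, rose by 2.19 ± 0.51 in SP-D-/- (4.58-fold, limma adjusted p = 0.00737), where the arrays at 96 h ran from 6.50 through 8.50 to 9.53 and those after ozone read 6.24, 6.11, 6.10 and 6.53. The lowest 96 h array lay just under the highest ozone array. In C57BL/6 Tff2 read 7.87, 7.02, 7.38, 8.10 and 9.76 at 96 h, against 6.03, 6.45 and 6.85 after ozone. These groups were apart, with a change of 1.58 ± 0.47 (2.99-fold, limma adjusted p = 0.00764) that lost its call without Af 96 h replicate 6.

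Bpifb1, a secreted protein of the BPI family made by airway secretory cells, read 10.66, 11.88 and 12.20 (lowest, median, highest) in SP-D-/- at 96 h, against 10.20, 10.68, 10.20 and 10.48 after ozone. That change of 1.26 ± 0.55 had a limma adjusted p of 0.202. In C57BL/6 Bpifb1 read 10.18, 10.56, 11.27, 12.23 and 12.41 at 96 h, against 9.37, 9.98 and 10.65 after ozone. The groups overlapped in each strain, and the C57BL/6 change of 1.38 ± 0.52 (limma adjusted p = 0.0313) lost its call without ozone replicate 4 or 5 or Af 96 h replicate 4 or 6. A second Bpifb1 probe set gave 1.00 in C57BL/6 with a limma adjusted p of 0.328.

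Agr2, the disulfide isomerase that folds mucins, read 7.67, 8.77 and 9.52 (lowest, median, highest) in SP-D-/- at 96 h, against 4.27, 6.50, 6.44 and 4.25 after ozone. In C57BL/6 it read 6.85, 9.84, 9.05, 9.18 and 9.91 at 96 h, against 4.22, 6.90 and 8.23 after ozone. The SP-D-/- groups were apart, and in C57BL/6 only replicate 1 at 96 h, the array doubted on its strain index, lay among the ozone arrays. Agr2 rose by 3.38 ± 0.61 in SP-D-/- (10.4-fold, limma adjusted p = 0.000573) and by 2.24 ± 0.57 in C57BL/6 (4.73-fold, adjusted p = 0.00189), the C57BL/6 change being 2.77 without the doubted arrays. A second, dimmer Agr2 probe set gave 2.45 and 1.68 in these strains, with adjusted p of 0.0552 and 0.0521, so its values miss the threshold.

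Of the transcription factors, Foxa3 read 5.42, 5.22, 8.37, 6.12 and 7.56 in C57BL/6 at 96 h, against 4.34, 4.57 and 4.69 (lowest, median, highest) after ozone, with no overlap. It rose there by 2.01 ± 0.43 (4.02-fold, limma adjusted p = 0.000271). In SP-D-/- it ran from 5.17 through 5.95 to 7.77 at 96 h and already read 5.23, 4.47, 5.80 and 6.18 after ozone alone, so the groups overlapped, with a change of 0.74 (95% interval -0.17 to 1.65). Spdef stayed close to background, at 4.69, 4.80 and 5.47 in SP-D-/- at 96 h against 3.69, 4.17, 4.33 and 4.15 after ozone, and at 4.45, 4.82, 4.70, 4.98 and 6.05 in C57BL/6 against 4.24, 4.42 and 4.69. Its changes of 0.82 and 0.58 had limma adjusted p of 0.0665 and 0.0577, although the SP-D-/- groups were apart. Without the 5 doubted arrays the Spdef change in C57BL/6 was 0.71 with an adjusted p of 0.0229, which made 9 of 9 genes called there, and in SP-D-/- the same test again called 6. The other changes without these arrays were, in SP-D-/- and in C57BL/6, 7.51 and 7.22 for Clca1, 2.61 and 3.11 for Muc5ac, 2.05 and 1.69 for Muc5b, and 4.09 and 3.21 for Fcgbp. They were 2.20 and 1.62 for Tff2, 1.21 and 1.67 for Bpifb1, 3.45 and 2.77 for Agr2, and 0.88 and 2.29 for Foxa3.

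**Figure D2:**
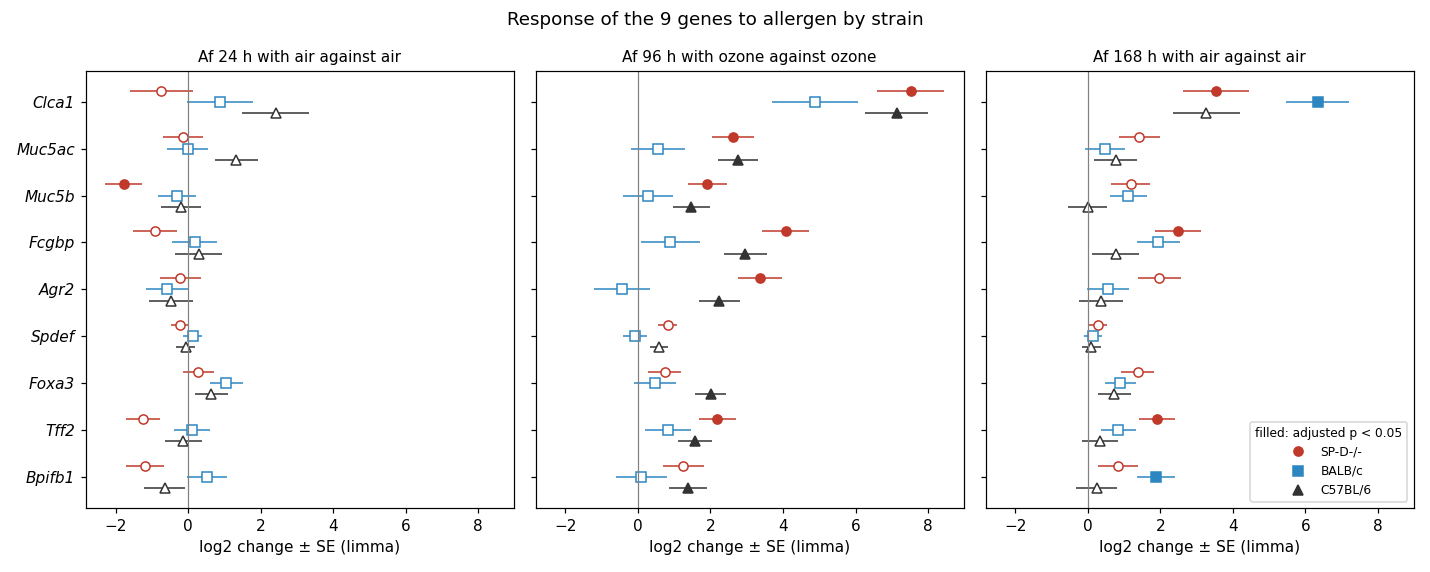
Log2 change ± SE (x axis) of the 9 genes (y axis) by strain, at Af 24 h (with air, relative to air alone), Af 96 h (with ozone, relative to ozone alone) and Af 168 h (with air, relative to air alone). Filled points passed an adjusted p of 0.05 with limma. At 96 h Clca1 lies at 7.52 in SP-D-/- and 7.14 in C57BL/6.

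The C57BL/6 groups at 96 h also differed in array quality measures. The spike level, the mean log2 signal of 9 hybridization control probe sets, averaged 11.92 at 96 h, against 10.41 after ozone, and the 3′ minus 5′ difference of the beta-actin controls 2.87, against 1.72. In SP-D-/- the spike level averaged 10.98 at 96 h against 11.57, and the actin difference 2.70 against 2.75. With the spike level as a covariate and the 5 arrays left out, limma called 15.2% of all genes in C57BL/6, and Clca1 (6.59), Agr2 (3.09), Muc5ac (3.09), Fcgbp (2.81), Foxa3 (1.45) and Spdef (0.94) passed, whereas Muc5b (1.08), Tff2 (1.19) and Bpifb1 (1.11) did not, with adjusted p of 0.203, 0.143 and 0.206. With the actin difference added as a covariate, 4 genes passed in C57BL/6: Clca1, Muc5ac, Fcgbp and Agr2.

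At 168 h after the challenge, with air, 3 of the 9 genes were higher in SP-D-/- than in air alone (Clca1, Fcgbp and Tff2), 2 were in BALB/c (Clca1 and Bpifb1), and 0 passed in C57BL/6, with 1 at an unadjusted p under 0.05. Limma called 1.35% of all genes in SP-D-/-, 1.56% in BALB/c and 1.35% in C57BL/6 in these comparisons. The median change of the 9 genes was 1.43 in SP-D-/-, 0.90 in BALB/c and 0.38 in C57BL/6, against 0.0477, -0.0264 and 0.0657 over all genes. Arrays did not overlap for 5 of the 9 genes in SP-D-/-, all higher with Af (9.83% of all genes did not overlap, in either direction), for 3 in BALB/c (7.26%) and for 1 in C57BL/6 (13.0%). The actin difference averaged 2.57 at 168 h against 1.88 in air in SP-D-/-, 2.83 against 1.71 in BALB/c and 2.58 against 1.59 in C57BL/6. With the spike level and the actin difference as covariates, and without the doubted arrays, limma called 4 of the 9 in SP-D-/- (Clca1, Fcgbp, Agr2 and Tff2), 1 in BALB/c (Clca1) and 0 in C57BL/6.

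Clca1 read 11.25, 11.56, 11.93, 9.70 and 10.89 in SP-D-/- at 168 h, against 6.21, 7.36, 8.21, 8.24 and 7.70 in air. In BALB/c it ran from 7.62 through 10.86 to 11.44 at 168 h, against 4.74, 3.30, 3.47, 3.70 and 3.66 in air. In C57BL/6 it read 7.96, 7.40, 11.60 and 6.95 at 168 h, against 3.81, 5.71 and 5.78 (lowest, median, highest) in air. All 168 h arrays were above all air arrays in each strain, and 1 C57BL/6 array, replicate 4, stood far above the other 3 of its group. Clca1 was higher by 3.52 ± 0.91 in SP-D-/- (11.5-fold, limma adjusted p = 0.0285), by 6.33 ± 0.87 in BALB/c (adjusted p = 9.88e-07) and by 3.27 ± 0.93 in C57BL/6 (9.66-fold, adjusted p = 0.0505). In BALB/c Clca1 exceeded 4.45 on only 1 of 5 air arrays, and with the others set to 4.45 it was at least 48.5-fold higher. The C57BL/6 value passed without the 5 doubted arrays, none of which is in this comparison (adjusted p = 0.0413). The dimmer Clca1 probe set gave 2.46 in SP-D-/- (adjusted p = 0.00588), 1.01 in BALB/c (adjusted p = 0.323) and 0.69 in C57BL/6 (adjusted p = 0.731).

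Among the other secreted products, Fcgbp read 8.71, 9.41, 9.62, 8.08 and 8.02 in SP-D-/- at 168 h, against 6.14, 6.03, 6.33, 6.65 and 6.22 in air, and was higher by 2.49 ± 0.63 (5.62-fold, limma adjusted p = 0.0263). Tff2 read 8.91, 9.02, 9.84, 7.84 and 9.67, against 6.37, 6.84, 7.15, 7.89 and 7.45 in air, and was higher by 1.92 ± 0.50 (3.78-fold, adjusted p = 0.0285). Only replicate 5 of the Tff2 arrays at 168 h lay within the air range. Bpifb1 ran from 8.54 through 9.79 to 10.65 in BALB/c at 168 h, against 8.27, 6.79, 7.23, 8.18 and 8.18 in air, without overlap, and was higher by 1.88 ± 0.52 (3.68-fold, adjusted p = 0.043). That call was lost when any of BALB/c air replicates 2, 3, 4 or 6 or Af 168 h replicates 3, 4, 5 or 6 was left out, and under cyclic loess, and the second Bpifb1 probe set gave 1.25 with an adjusted p of 0.478. The Clca1, Fcgbp and Tff2 calls in SP-D-/- also rested on single arrays: 0 of the 9 genes passed without Af 168 h replicate 4 or 5 or without air replicate 2, 3 or 4, Tff2 alone passed without Af 168 h replicate 3 and Fcgbp alone without replicate 6.

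The mucins and Agr2 in SP-D-/- at 168 h did not pass the test. Muc5b read 9.69, 10.05, 10.43, 9.17 and 9.61, against 8.59, 8.34, 8.76, 8.68 and 8.68 in air, and Agr2 read 8.59, 8.67, 9.07, 7.12 and 8.53, against 5.41, 6.38, 6.67, 6.73 and 6.92 in air. Neither gene overlapped between the groups, with changes of 1.18 and 1.97 and limma adjusted p of 0.267 and 0.0714. Agr2 passed in 4 of 8 alternative analyses, with adjusted p from 0.0271 to 0.0992, among them that without the doubted arrays (0.0453). Muc5ac read 6.99, 6.12, 7.58, 6.21 and 4.47 at 168 h, against 4.06, 4.91, 5.14, 5.0 and 5.14 in air, where 1 array at 168 h lay among the air arrays. Foxa3 read 5.55, 7.39, 5.88, 5.78 and 6.52, against 5.32, 4.52, 4.98, 4.77 and 4.64 in air, without overlap and with an adjusted p of 0.0989. In BALB/c, Muc5ac ran from 4.82 to 5.71 at 168 h, against 4.61 to 5.0 in air, a change of 0.49 (95% interval -0.61 to 1.58).

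C57BL/6 replicate 4 at 168 h with air held the highest value of its group for all 9 genes. It read 7.89 for Muc5ac, where the other 3 arrays read 5.12, 4.61 and 4.16, and 9.95 for Muc5b, where they read 7.75, 6.23 and 6.49. For Fcgbp it read 8.98, against 5.52, 5.87 and 4.89 on the others, and for Agr2 8.90, against 6.10, 4.62 and 5.01. Of these other 3 arrays, 2 lay below every C57BL/6 air array for Muc5b (7.34 to 7.95 in air) and 2 for Agr2 (5.28 to 6.17 in air). Clca1 was above every air array on all 4. Over the 18 groups, the array highest for Clca1 was also the highest for Fcgbp and for Tff2 in 14 groups each, for Muc5ac in 10, Spdef and Bpifb1 in 9, Muc5b and Agr2 in 8 and Foxa3 in 3, where the median over all genes was 4.

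**Figure D3:**
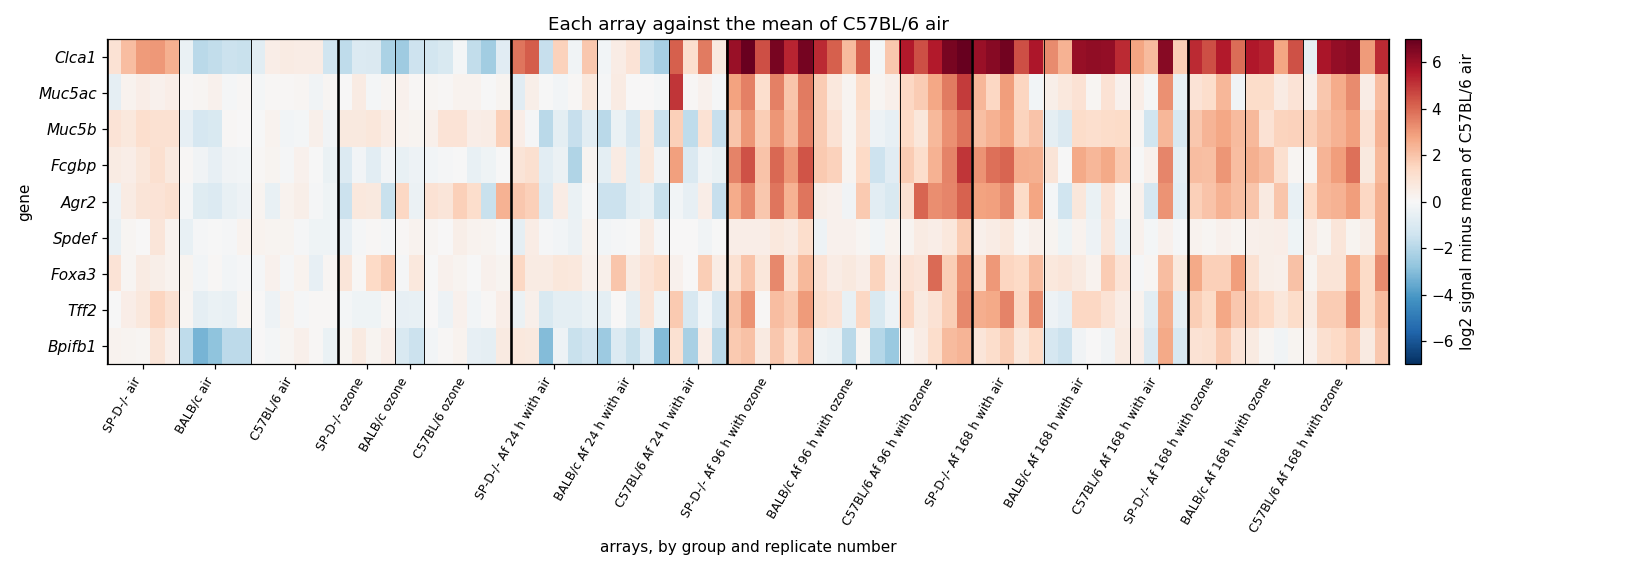
Each of the 89 arrays (columns, by group and replicate number) as log2 signal minus the mean of C57BL/6 air, for the 9 genes (rows). Red is higher and blue lower. In C57BL/6 at Af 168 h with air, replicate 4 is the high column, with Clca1 at 11.60.

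At 24 h after the challenge none of the 9 genes passed as higher. Limma called 1 of 9 in SP-D-/-, where Muc5b was lower, and 0 of 9 in BALB/c (1 at an unadjusted p under 0.05) and in C57BL/6 (2 at an unadjusted p under 0.05). At this time limma called 4.71% of all genes in SP-D-/-, 12.1% in BALB/c and 16.2% in C57BL/6. The same air arrays serve the 24 h and the 168 h comparisons. A second Bpifb1 probe set was lower by 3.23 on the log2 scale in SP-D-/- (limma adjusted p = 0.00837), whereas the brighter one changed by -1.18 (adjusted p = 0.197). The median change of the 9 genes was -0.74 in SP-D-/-, 0.13 in BALB/c and -0.06 in C57BL/6.

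Muc5b read 5.72, 6.89 and 8.06 (lowest, median, highest) in SP-D-/- at 24 h, against 8.59, 8.34, 8.76, 8.68 and 8.68 in air, so every array was below air, where 10.2% of all genes did not overlap in either direction. It fell by 1.77 ± 0.51 on the log2 scale (limma adjusted p = 0.0263). This call was lost without Af 24 h replicate 3 or 5 or air replicate 4, 5 or 6, and under cyclic loess. Markers of other airway cells were lower at the same time: 5 of 7 club cell genes fell in SP-D-/- and in C57BL/6 and 6 of 7 in BALB/c, and 4 of the 5 ciliated cell genes tested fell in each strain (4.71% of all genes were called in SP-D-/-, 12.1% in BALB/c and 16.2% in C57BL/6). The BALB/c counts include the doubted replicates 4 and 5, without which 4.51% of all genes were called there. The BALB/c club cell list mean ran from 6.21 to 9.23 at 24 h, against 10.52 to 11.12 in air. The mean log2 level of the club cell list was 8.75 to 10.24 over the SP-D-/- arrays at 24 h, against 10.78 to 11.12 in air, and that of the ciliated list 5.38 to 6.25, against 6.96 to 7.50. Their part in the Muc5b result was not tested. The actin difference averaged 2.54 at 24 h against 1.88 in air in SP-D-/-, 2.64 against 1.71 in BALB/c and 2.84 against 1.59 in C57BL/6. With the spike level and the actin difference as covariates, and without the doubted arrays, Muc5b in SP-D-/- changed by -1.90 (limma adjusted p = 0.0162).

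Clca1 in C57BL/6 at 24 h read 9.40, 6.38, 8.81 and 5.86, against 3.81, 5.71 and 5.78 (lowest, median, highest) in air. All 4 arrays were above air, 1 of them by under 0.1, where 13.3% of all genes did not overlap in either direction. The change of 2.41 ± 0.93 had a limma adjusted p of 0.0611, and the dimmer Clca1 probe set gave 0.67 (adjusted p = 0.376). In SP-D-/- Clca1 spread from 3.58 through 6.96 to 9.43 at 24 h across its air values, and in BALB/c it read 5.02, 5.75, 6.18, 3.41 and 2.87, the last 2 being the doubted arrays. Without them the BALB/c change was 1.88 in place of 0.87, with an adjusted p of 0.369. Muc5ac in C57BL/6 read 9.66 on replicate 1 and 4.76, 4.99 and 4.61 on the others, against 4.43 to 4.82 in air, so 1 array carried its change of 1.33. Clca1 and Muc5ac passed in C57BL/6 without Af 24 h replicate 3 or 6.

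Set against 24 h, the 168 h arrays in air were higher for 6 of 9 genes in SP-D-/- (1.36% of all genes called), for 1 in BALB/c (4.36%) and for 0 in C57BL/6 (0 at an unadjusted p under 0.05, 0.186% of all genes called). In SP-D-/- limma gave 3.40 ± 0.60 for Fcgbp, 3.15 ± 0.47 for Tff2, 2.95 ± 0.51 for Muc5b, 4.26 ± 0.87 for Clca1, 2.18 for Agr2 and 2.02 for Bpifb1, with adjusted p from 1.47e-05 (Tff2) to 0.0251 (Agr2). Every 168 h array was above every 24 h array for 5 of these genes, Agr2 being the exception, where 2.14% of all genes did not overlap. The Agr2 and Bpifb1 calls were lost without Af 24 h replicate 3, 5 or 6 or Af 168 h replicate 3, 4 or 6, and that of Agr2 also without Af 168 h replicate 2. In BALB/c Clca1 was higher by 5.46 ± 0.87 (adjusted p = 3.69e-05), and by 4.46 without the doubted arrays (adjusted p = 0.016), whereas the dimmer probe set gave 0.73 (adjusted p = 0.434). The second Bpifb1 probe set was higher there by 3.03 (adjusted p = 0.0192). Without BALB/c Af 168 h replicate 2, Muc5b and Fcgbp also passed there, 3 genes in place of 1. In both strains 5 of the 7 club cell genes rose over the same interval, and 4 of the 5 ciliated cell genes tested rose in SP-D-/- and 2 in BALB/c. The BALB/c counts include the doubted arrays, without which 0.75% of all genes were called there. The part of these cells in the changes of the 9 genes was not tested.

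Ozone alone, against air alone, moved none of the 9 genes past the threshold in any strain. Limma called 0 in SP-D-/- (1 at an unadjusted p under 0.05), 0 in BALB/c and 0 in C57BL/6 (0 at an unadjusted p under 0.05 in both), and 0.0996%, 0.0133% and 0.0266% of all genes in these strains. Clca1 read 3.45, 4.25, 4.20 and 2.99 in SP-D-/- after ozone, against 6.21, 7.36, 8.21, 8.24 and 7.70 in air, with all ozone arrays lower. The difference of -3.82 ± 0.96 had a limma adjusted p of 0.0739, and it passed without air replicate 2 or ozone replicate 3. The dimmer Clca1 probe set gave 0.31, in the other direction (limma adjusted p = 0.78). Fcgbp also had no overlap there, at 4.56, 5.36, 4.82 and 5.36 after ozone against 6.03 to 6.65 in air, with an adjusted p of 0.326, where 8.71% of all genes had no overlap. The ozone arrays of SP-D-/- had a mean spike level of 11.57, against 10.73 in air, and a mean actin difference of 2.75, against 1.88, and their part in this was not tested. These low ozone values are also the base of the 96 h comparison in SP-D-/-.

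At 168 h, Af with ozone was set against Af with air. Limma called 0 of 9 genes in SP-D-/- (0 at an unadjusted p under 0.05), 0 in BALB/c (0) and 0 in C57BL/6 (4), and 0.604%, 0.0199% and 0.0597% of all genes. In C57BL/6 the ozone arrays ran from 8.60 through 9.88 to 10.46 for Muc5b, against 7.75, 6.23, 9.95 and 6.49 with air, where replicate 4 of the air arrays overlapped the ozone group. The difference for Muc5b was 2.09 ± 0.54 (4.24-fold, adjusted p = 0.129). The labels state no pairing by replicate number. In this comparison alone the residuals of arrays with the same number correlated above 0.1 in 4 of 4 pairs, so a block by number was chosen from these same data. With that block Muc5b was higher by 2.46 with a limma adjusted p of 0.0312, 1 gene called of the 9 in place of 0. Muc5b also passed without Af 168 h with air replicate 4, and Muc5b and Tff2 without Af 168 h with ozone replicate 1, the array with the lowest Clca1 of its group (4.68, where the others ran from 8.17 to 11.51). In SP-D-/- the 9 differences lay between -1.06 and 0.38, and the second Clca1 probe set was lower by 2.18 on the log2 scale, with a limma adjusted p of 0.0381. In BALB/c they lay between -0.35 and 1.03, and without the doubted array replicate 6 the Agr2 difference was 1.51 in place of 1.00, with an adjusted p of 0.476.

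In air, SP-D-/- and C57BL/6 mice did not differ past the threshold for any of the 9 genes (limma, 0 called, 1 at an unadjusted p under 0.05, 0.0664% of all genes called). Clca1 read 6.21, 7.36, 8.21, 8.24 and 7.70 in SP-D-/-, against 3.81, 5.71 and 5.78 (lowest, median, highest) in C57BL/6, and all SP-D-/- arrays were higher, with a difference of 2.34 ± 0.87 and an adjusted p of 1. The dimmer Clca1 probe set gave a difference of 0.09. Muc5b and Fcgbp also had all SP-D-/- arrays above all C57BL/6 arrays, and 1.67% of all genes did not overlap in either direction. BALB/c mice in air differed from C57BL/6 mice in 1 of the 9 genes, where 0.511% of all genes were called. Bpifb1 read 8.27, 6.79, 7.23, 8.18 and 8.18 in BALB/c, against 9.57, 10.07 and 10.38 (lowest, median, highest) in C57BL/6, with no overlap (as for 4.07% of all genes) and a difference of -2.29 ± 0.52 (limma adjusted p = 0.0105). The call was lost without BALB/c air replicate 2, with the mean of both Bpifb1 probe sets (adjusted p = 0.052) and with the second probe set (adjusted p = 0.208), and a sequence difference under the probes between the strains was not tested.

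The differences between strains in their response were tested as interaction terms, and none of the 9 genes passed in any of the 6. At 96 h, limma called 0 of 9 for SP-D-/- minus C57BL/6 (1 at an unadjusted p under 0.05), where 27.4% of all genes were called, and 0 of 9 for BALB/c minus C57BL/6 (4 at an unadjusted p under 0.05), where 0% were. For Foxa3 the SP-D-/- minus C57BL/6 response was -1.27, with a 95% interval from -2.51 to -0.02 and a limma adjusted p of 0.113, and it passed without SP-D-/- Af 96 h replicate 4. For Clca1 that difference was 0.38, with an interval from -2.16 to 2.91, and for Muc5ac -0.13, from -1.73 to 1.47. BALB/c minus C57BL/6 gave -2.68 for Agr2 (-4.58 to -0.77, and -3.21 without the doubted arrays), -2.20 for Muc5ac (-4.04 to -0.36), -2.07 for Fcgbp (-4.09 to -0.05) and -1.53 for Foxa3 (-2.96 to -0.09), with an adjusted p of 0.689 for each. At 168 h limma called 0 of 9 for SP-D-/- minus C57BL/6 (1 at an unadjusted p under 0.05, 0.00664% of all genes) and 0 for BALB/c minus C57BL/6 (2, with 0% of all genes). The BALB/c minus C57BL/6 value for Clca1 at 168 h was 3.06 (0.53 to 5.60), and 0.32 by the dimmer probe set. At 24 h limma called 0 for SP-D-/- minus C57BL/6 (2, with 0% of all genes), with -3.15 for Clca1 (-5.68 to -0.61, and -0.33 by the dimmer probe set), and 0 for BALB/c minus C57BL/6 (0, with 0.0133% of all genes).

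The mucus pathway beyond the 9 genes was followed with 4 lists. Of the other mucins and secretory products, 16 of 20 were tested. At 96 h, 5 rose in SP-D-/- and 0 fell (31.2%, where 2.58% of all genes were called), and 7 rose in C57BL/6 and 0 fell (43.8%, where 36.4% of all genes were called). Slc26a4 (pendrin, an anion exchanger of the airway surface) averaged 9.65 ± 0.65 (SD) in SP-D-/- at 96 h against 6.65 ± 0.81 after ozone, and 9.94 ± 0.27 in C57BL/6 against 5.68 ± 0.22. It rose by 3.01 in SP-D-/-, 4.26 in C57BL/6 and 4.39 in BALB/c, where it was the only gene of the 4 lists called, with limma adjusted p of 0.00258, 8.06e-08 and 0.00135. Itln1 (intelectin, a lectin secreted by goblet cells) rose by 2.68 in SP-D-/- and by 2.85 in C57BL/6. Capn9, a calpain protease, rose by 2.30 in SP-D-/- and by 1.80 in C57BL/6, and Retnlb, a resistin-like protein secreted by goblet cells, by 1.59 and by 1.83. The median change of this list was 0.41 in SP-D-/- and 0.50 in C57BL/6.

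Of 18 tested genes for mucin folding and glycosylation (22 listed), 4 rose and 0 fell in SP-D-/- at 96 h, and 3 rose and 1 fell in C57BL/6, which is 22.2% of the list in each strain. Over all genes 2.58% were called in SP-D-/- and 36.4% in C57BL/6, so the list share was above that of all genes in SP-D-/- and below it in C57BL/6. Gcnt3, which builds branched mucin sugars, rose by 1.82 in SP-D-/- and by 2.00 in C57BL/6. Galnt3, which starts mucin sugar chains, rose by 1.57 in SP-D-/- and by 1.27 in C57BL/6, and Galnt4 by 1.61 in SP-D-/-, where C57BL/6 gave -0.37 (adjusted p = 0.507). St3gal1, a sialyltransferase, fell by 1.24 in C57BL/6, where SP-D-/- gave 0.28 (adjusted p = 0.617). Median changes were 0.65 and 0.12.

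Of 20 tested signals and factors upstream of goblet cells (22 listed), 2 rose and 0 fell in SP-D-/- at 96 h, and 5 rose and 2 fell in C57BL/6, or 10% and 35% of the list, the C57BL/6 share being near that of all genes (2.58% of all genes were called in SP-D-/- and 36.4% in C57BL/6). Hes1, a target of Notch signals, rose by 1.14 in SP-D-/- and by 0.62 in C57BL/6. Foxa2 rose by 1.11 in SP-D-/-, where C57BL/6 gave 0.69 (adjusted p = 0.0508). Sox2, a factor of airway epithelium, rose by 1.39, Il13, the cytokine that drives goblet cells, by 1.23 and Egfr, a growth factor receptor, by 0.91 in C57BL/6, where SP-D-/- gave 0.95, 0.04 and -0.02 with adjusted p of 0.32 or more. In C57BL/6 Stat6 fell by 0.78 and Il4ra by 0.74, both named after their values were seen. Median changes were 0.09 and 0.23. Of 13 tested genes for the release of mucin granules (16 listed), 1 rose and 0 fell in SP-D-/-, and 2 rose and 3 fell in C57BL/6, or 7.69% and 38.5% of the list, the C57BL/6 share again near that of all genes. Scin, which severs actin filaments, rose by 2.85 in SP-D-/- and by 1.78 in C57BL/6, while Vamp2, a vesicle fusion protein, fell by 2.02 and Marcks, which ties mucin granules to actin, by 1.53 in C57BL/6, where SP-D-/- gave -0.48 and 0.32 (adjusted p = 0.604 and 0.723). Median changes were 0.05 and -0.38. Without the 5 doubted arrays, the lists in the order given had 5, 4, 2 and 1 genes that rose and 0 that fell in SP-D-/-, and 7, 4, 6 and 3 that rose and 0, 2, 2 and 4 that fell in C57BL/6. Of all genes, 2.24% were then called in SP-D-/- and 40% in C57BL/6. In a fit that leaves out the 5 doubted arrays and adds the spike level as a covariate, the lists in the order given had 5, 2, 1 and 1 genes that rose and 0 that fell in SP-D-/-, and 4, 2, 3 and 2 that rose and 0, 0, 0 and 2 that fell in C57BL/6. That fit called 1.75% of all genes in SP-D-/- and 15.2% in C57BL/6.

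**Figure D4:**
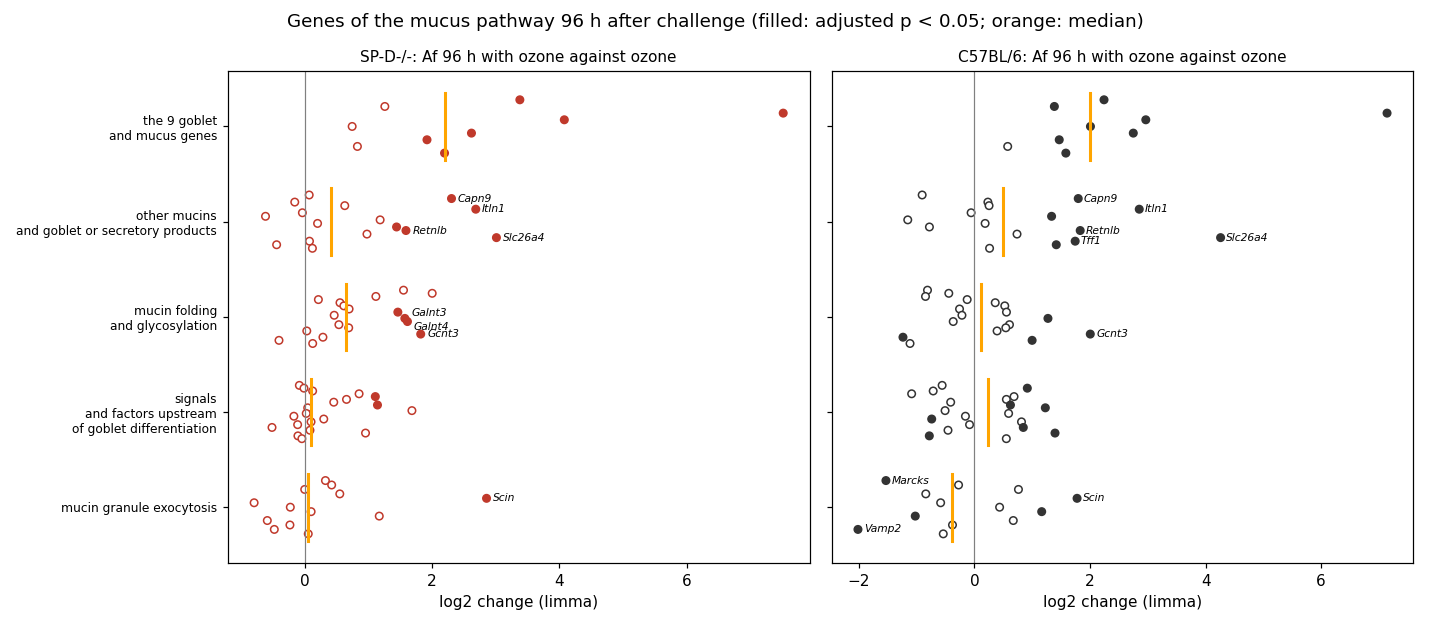
Log2 change (x axis) of the 9 genes at Af 96 h with ozone, relative to ozone alone, and of the tested genes of 4 pathway lists (rows), in SP-D-/- and in C57BL/6. Filled points passed an adjusted p of 0.05 with limma and orange lines are medians, 2.19 and 2.01 for the 9 genes and 0.41 and 0.50 for other mucins and products.

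At 168 h with air, the list of mucins and products had 1 gene that rose in SP-D-/- (Itln1, 2.43), 2 in BALB/c (Slc26a4, 4.52, and Itln1, 3.29) and 1 in C57BL/6 (Slc26a4, 3.06). That was 6.25%, 12.5% and 6.25% of the list, where 1.35%, 1.56% and 1.35% of all genes were called. Slc26a4 gave 1.89 in SP-D-/- (adjusted p = 0.0855) and Itln1 0.85 in C57BL/6 (adjusted p = 0.648). Scin rose by 1.78 in SP-D-/-, where BALB/c gave 1.60 (adjusted p = 0.055), and the folding and upstream lists had 0 called genes in each strain. Without the doubted arrays, the list of mucins and products had 4 that rose in SP-D-/- (25%), 2 in BALB/c and 1 in C57BL/6. Of all genes, 2.17%, 2.56% and 2.24% were then called. With the spike level added as a covariate, 4, 2 and 2 rose, where 3.41%, 1.85% and 4.75% of all genes were called. At 24 h, Slc26a4 had already risen, by 3.02 in SP-D-/-, 4.36 in BALB/c and 4.13 in C57BL/6, while 4 other genes of its list fell in SP-D-/-, 2 in BALB/c and 1 in C57BL/6. Those that fell included Scgb3a1, a secretoglobin of airway secretory cells, by 2.83 in SP-D-/-, 2.21 in BALB/c and 2.10 in C57BL/6. Clca4a, of the same list, also rose in C57BL/6, by 0.96. Of this list 31.2% was called at 24 h in SP-D-/-, 18.8% in BALB/c and 18.8% in C57BL/6, where 4.71%, 12.1% and 16.2% of all genes were. Agr3, the paralog of Agr2 found in ciliated cells, fell by 2.14, 1.71 and 2.00 in these strains, and was the only gene of the folding list to fall in SP-D-/- and BALB/c. Of the upstream list, 1 rose and 2 fell in SP-D-/-, and 2 rose and 3 fell in BALB/c. In C57BL/6 4 rose and 5 fell. Of the called genes, those with the largest changes fell. In SP-D-/- Foxj1 fell by 2.02 and Foxa1 by 1.71. In BALB/c Foxa1 fell by 2.60, Sox2 by 2.23 and Foxj1 by 1.33. In C57BL/6 Il13ra1 fell by 2.74, Foxa1 by 2.04 and Sox2 by 1.56. Il13 was among the genes that rose in each strain, by 0.86 in SP-D-/-, 0.98 in BALB/c and 1.29 in C57BL/6. Its values in BALB/c and C57BL/6 were named after they were seen. In SP-D-/- mice in air Il13 read 3.78 to 4.12, near background. The share of this list called at 24 h was 15% in SP-D-/-, 25% in BALB/c and 45% in C57BL/6, where 4.71%, 12.1% and 16.2% of all genes were called. The BALB/c counts depended on the doubted arrays. Without them 4.51% of all genes were called in BALB/c at 24 h, and the upstream list had 1 gene that rose and 0 that fell (5%). The folding list then had 0 called genes, so Agr3 lost its call, and the list of mucins and products had 1 that rose and 1 that fell. With all arrays, the granule list had 0 genes that rose at 24 h in each strain, and 0 that fell in BALB/c. In SP-D-/- 2 fell (15.4% of the list), Rab27a by 1.37 and Myo5c by 1.30. In C57BL/6 3 fell (23.1%), Vamp2 by 1.81, Rab27a by 1.49 and Myo5c by 1.27. Of all genes, 4.71% were called in SP-D-/-, 12.1% in BALB/c and 16.2% in C57BL/6.

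Markers of other epithelial cells were read in the same comparisons at 96 h, the called ones being named after their values were seen. In SP-D-/- 0 of 7 club cell genes and 0 of 5 ciliated cell genes passed, and 1 of 5 pan-epithelial genes rose (Cdh1). In C57BL/6 1 club cell gene fell (Hp), 2 ciliated cell genes rose (Lrrc23 and Ccdc39), 2 pan-epithelial genes rose and 1 fell, and 2 of 6 basal or stratified genes rose. Over all genes, limma called 2.58% in SP-D-/- and 36.4% in C57BL/6 in these comparisons. The mean log2 level of the club cell list was 9.75 to 10.44 over the SP-D-/- arrays at 96 h against 9.85 to 10.54 after ozone, and 9.50 to 11.10 in C57BL/6 against 9.94 to 10.92. That of the pan-epithelial list was 9.35 to 10.04 in SP-D-/- against 8.28 to 9.22, and 9.28 to 10.26 in C57BL/6 against 8.74 to 9.43. The ciliated list had 6.44 to 7.32 in SP-D-/- against 5.95 to 6.80, and 6.53 to 8.16 in C57BL/6 against 5.72 to 6.81. The part of these levels in the changes of the 9 genes was not tested. At 168 h none of the club, ciliated or alveolar type 2 genes tested passed in any strain, and 1 pan-epithelial gene (Krt8) rose in C57BL/6. Of all genes, 1.35% were called in SP-D-/-, 1.56% in BALB/c and 1.35% in C57BL/6 at that time.

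By the correlation of 18 group means with the mean pattern of the 9 genes, which share arrays, strains and array quality, the most alike genes outside the list were Gsto1 (r = 0.94), Wdr78 (0.92), Lypd2 (0.91), Cldn22 (0.91) and Ly6g6d (0.91). Among the other genes tested, 0.452% had an r above 0.8. The 9 genes themselves lay between 0.87 (Foxa3) and 0.96 (Fcgbp), values that include each gene in its own reference. Gsto1, a glutathione transferase, averaged 11.10 in its highest group, C57BL/6 at 96 h, and 8.49 in its lowest, BALB/c air.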

How the data were processed

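The authors deposited log2 signals of 45141 probe sets on 89 Affymetrix HT Mouse430PM arrays, after NuGEN amplification per the labels' protocols. The software that made them is not given in the sources used here, and all arrays have the same median. Of the probe sets 28898 had 1 gene symbol, 551 several and 15692 none here, and 104 were controls. Each gene was read from its probe set with the highest mean. A gene was tested if it exceeded the 40th percentile (4.45) on at least 4 arrays, which left 15065 genes.

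Groups of strain and exposure were taken from the sample titles, and 26 comparisons were taken from 1 fit of 18 group means to all arrays (limma 3.58.1, R 4.3.3, two-sided moderated test), with Benjamini-Hochberg adjustment across all 15065 genes and calls under 0.05. Changes are given ± SE. The fit was tested on simulated data. The 9 genes, the lists and the tests were chosen with earlier results of these data known. Genes named are the 9, up to 3 called genes of each list with the largest change in a comparison, the 5 genes most like the 9 in pattern, and Sftpd. Not all list genes that met this rule are printed for every comparison. Called marker genes, Stat6, Il4ra and Il13 at 24 h in wild types were named after their values were seen. Folds with low values set to 4.45, and list counts without the doubted arrays, were added after seeing the data.

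The doubted arrays had Sftpd under 9 in a wild type or above 8 in SP-D-/-, or an index on the other strain's side of 0. Replicate numbers count as pairs where every pair of residuals correlated above 0.1, which held only for Af 168 h with ozone against air in C57BL/6 (4 of 4 pairs, mean r 0.337, against -0.0597 for other numbers), a pairing that the labels do not explain. Alternatives were cyclic loess, averaging a gene's probe sets, each other probe set, no filter, only the groups compared, the replicate block, the spike level and the actin difference as covariates, leaving out the doubted arrays and leaving out each array. The number of arrays a group limits the precision. Python 3.11.15 with matplotlib 3.10.9 drew the figures.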

Additional observations from a re-analysis of the deposited data

Results flagged for a closer look

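In 153 combinations of a gene and a group of 4 to 6 arrays, the gap between the highest or lowest array and its nearest neighbour was set against the range of the group. It was unusually wide in 12, where chance gives about 5%, or about 1 in 20.

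For Muc5ac, C57BL/6 Af 24 h with air replicate 1 stood highest at 9.6593, where the next array read 4.9913, and BALB/c Af 24 h with air replicate 2 was highest at 5.2638. SP-D-/- air replicate 2 was lowest for Muc5ac at 4.0637. For Spdef, C57BL/6 Af 168 h with ozone replicate 6 stood highest at 6.7211, where the next read 5.1097, which is the highest Spdef value of all arrays. Other Spdef values were close to background: 3.9949 was lowest in C57BL/6 Af 24 h with air (replicate 4), 4.8102 was highest in BALB/c Af 24 h with air (replicate 4, a doubted array), and 3.9349 was lowest in BALB/c Af 168 h with ozone (replicate 6, a doubted array).

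For Agr2, C57BL/6 Af 96 h with ozone replicate 1, a doubted array, was lowest at 6.8517, where the next read 9.0532, and SP-D-/- Af 168 h with air replicate 5 was lowest at 7.1179. Fcgbp was highest at 8.6078 in SP-D-/- Af 168 h with ozone replicate 4. Clca1 was highest at 4.736 in BALB/c air replicate 1, and Bpifb1 was highest at 10.9267 in SP-D-/- air replicate 5.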

How the results depend on the processing

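No gene of the 9 changed sign while called, under any alternative. Called genes are counted out of 9 below. Fitting only the groups compared gave 1 in place of 0 for ozone in SP-D-/- (Clca1), for Af 24 h and Af 168 h with air in C57BL/6 (Clca1 in both) and for SP-D-/- against C57BL/6 in air (Muc5b). It also gave 2 in place of 1 for Af 24 h in SP-D-/-, 5 in place of 3 for Af 168 h with air in SP-D-/-, 4 in place of 2 for Af 168 h with air in BALB/c, and 3 in place of 6 for Af 168 h against 24 h in SP-D-/-. Cyclic loess gave 1 in place of 0 for Af 24 h in C57BL/6, 0 in place of 1 for Af 24 h in SP-D-/-, 5 in place of 6 for Af 96 h in SP-D-/- (Muc5b lost) and 1 in place of 2 for Af 168 h with air in BALB/c. The mean of all probe sets gave 2 in place of 1 for Af 24 h in SP-D-/-, 1 in place of 2 for Af 168 h with air in BALB/c, 2 in place of 1 for Af 168 h against 24 h in BALB/c, 7 in place of 8 for Af 96 h in C57BL/6 (Bpifb1 lost) and 0 in place of 1 for BALB/c against C57BL/6 in air. The spike level as a covariate, which also leaves out the 5 doubted arrays, gave 4 in place of 3 for Af 168 h with air in SP-D-/- (Agr2 gained), 1 in place of 2 in BALB/c and 1 in place of 0 in C57BL/6, and 6 in place of 8 for Af 96 h in C57BL/6. With the actin difference added these were 4, 1, 0 and 4. Leaving out the 5 doubted arrays gave 4 in place of 3 for Af 168 h with air in SP-D-/- (Agr2 gained), 1 in place of 0 in C57BL/6 (Clca1) and 9 in place of 8 for Af 96 h in C57BL/6 (Spdef gained). Read from a gene's other probe set, 3 values gained and 7 lost a call. The cause of these shifts was not tested.

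With the replicate block, 3 in place of 6 genes passed for Af 96 h in SP-D-/- (Clca1, Fcgbp and Agr2), 7 in place of 8 for Af 96 h in C57BL/6 (Bpifb1 lost), 1 in place of 2 for Af 168 h with air in BALB/c and 1 in place of 0 for Af 168 h with ozone against air in C57BL/6. The labels state no pairing in any of these, and only in the last did every pair of residuals correlate above 0.1.

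Leaving out 1 array at a time gave 5 to 9 genes for Af 96 h in C57BL/6, 5 to 6 in SP-D-/- and 0 to 1 in BALB/c, and for Af 168 h with air 0 to 3 in SP-D-/-, 1 to 3 in BALB/c and 0 to 1 in C57BL/6. It gave 0 to 1 for Af 24 h in SP-D-/- and 0 to 2 in C57BL/6, 4 to 6 for Af 168 h against 24 h in SP-D-/- and 1 to 3 in BALB/c, 0 to 1 for ozone in SP-D-/-, 0 to 2 for ozone at Af 168 h in C57BL/6, 0 to 1 for BALB/c against C57BL/6 in air and 0 to 1 for the difference of the Af 96 h responses of SP-D-/- and C57BL/6. All other comparisons stayed at 0.

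Counts over all genes, which set the adjusted p, moved more. Over the alternatives other than leaving out 1 array, they ran from 1356 to 6203 for Af 96 h in C57BL/6 (5480), 132 to 386 in SP-D-/- (389) and 3 to 30 in BALB/c (8), from 171 to 514 for Af 168 h with air in SP-D-/- (204), 125 to 894 in BALB/c (235) and 32 to 2056 in C57BL/6 (204), and from 481 to 1252 for Af 24 h in SP-D-/- (709), 306 to 1951 in BALB/c (1816) and 501 to 3073 in C57BL/6 (2437). Af 168 h against 24 h gave 107 to 421 in SP-D-/- (205), 20 to 714 in BALB/c (657) and 0 to 87 in C57BL/6 (28), and ozone at Af 168 h gave 1 to 310 in SP-D-/- (91), 0 to 185 in BALB/c (3) and 0 to 52 in C57BL/6 (9). Ozone alone gave 0 to 42 in SP-D-/- (15), 1 to 2 in BALB/c (2) and 4 to 51 in C57BL/6 (4), and the strains in air 10 to 28 for SP-D-/- (10) and 63 to 437 for BALB/c (77), each against C57BL/6. The difference of the Af 96 h responses between SP-D-/- and C57BL/6 gave 4127 genes, 58 with the spike level as a covariate and 0 with the actin difference added. For BALB/c minus C57BL/6 it gave 0 to 20 (0), and the differences at 24 h and 168 h gave at most 2. Signal near background limits the sizes for Spdef, above 4.45 on 47 of 89 arrays, and for Clca1, on 70 of 89 and on 1 of the 12 arrays of ozone alone.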
